A study of Mus musculus with 8 samples.

Results

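Ribosome biogenesis was followed through the mRNA of Myc and 53 further genes in ASZ001, a mouse basal cell carcinoma line grown in culture. The members were a list of gene symbols, chosen with earlier results of these data known. They were Myc, which encodes the transcription factor MYC, and genes whose products transcribe ribosomal RNA, modify it or assemble the ribosomal subunits. Of the 54 symbols, 53 matched 1 entry each of the 24883 in the count table, and Noc2l was not analysed here. All 53 passed the filter on low counts, among 12879 genes that did.

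The line carried a doxycycline-inducible vector, either empty or with c-FOS, the AP-1 transcription factor subunit encoded by Fos, and doxycycline was given to every sample for 24 h. Cells with c-FOS then received DMSO, 5 µM afatinib (an inhibitor of the EGFR family of receptor kinases) or 10 µM UO126 (an inhibitor of MEK1 and MEK2, the kinases that activate ERK) for 6 h. The label of the empty-vector group names doxycycline and no vehicle. A change described below as with c-FOS sets the DMSO group beside the empty-vector group. By their labels these groups differ in vehicle as well as in the vector the cells carry. The part of each in such a change was not tested. Each of the 4 groups held 2 libraries. Whether both libraries of a group are separate cultures is not labelled, so p-values measure only the spread between them, which may be technical. All groups are 1 cell line with a vector driven by doxycycline, and no group combined the empty vector with an inhibitor. In bulk RNA, fewer cells expressing a gene and less RNA per cell cannot be told apart.

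MYC pairs with MAX and binds the E-box, whose best-known form is CACGTG. Genes of ribosome production are among its classic targets. In the nucleolus RNA polymerase I copies the ribosomal DNA into a long precursor. Small nucleolar ribonucleoproteins (snoRNPs) of the box C/D and box H/ACA classes then modify that precursor, and assembly factors cut and fold it into the small (40S) and large (60S) subunits. ERK signalling is known to stabilise MYC protein and to act on polymerase I initiation factors, and a growing tumour cell depends on this output. MYC protein and the rate of ribosomal RNA synthesis were not measured here.

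The libraries summed to between 17901974 and 23126048 counts. Fos was at 40.6 and 50.5 CPM (counts normalised to the scaled library size) with the empty vector, and from 813 to 1163 CPM in the 6 libraries with c-FOS. Among these it was lower with UO126 than with DMSO (log2 fold change -0.44 ± 0.08 SE, adjusted p = 0.00148) and not called with afatinib (-0.06 ± 0.08, adjusted p = 0.565), and the part of this difference in the results was not tested. The ERK target Dusp6 stood at 55.7 and 62.2 CPM under DMSO, 8.91 and 8.89 under afatinib and 14.5 and 15.5 under UO126, lower in both inhibitor groups. Of 15 markers of basal keratinocytes and basal cell carcinoma 13 passed 1 CPM. They summed to between 20627 and 20892 CPM with afatinib, below the other groups (24020.1 and 24386 with DMSO, 23691.8 to 25179 in the empty-vector and UO126 libraries), and their part in the results was not tested. Markers of leukocytes summed to at most 9.36 CPM and those of fibroblasts to at most 10.7 CPM in a library. The leukocyte gene Tyrobp and the fibroblast genes Lum and Thy1 had no count in any library. Those that passed 1 CPM in a library were Cd68 (4.68 to 5.93) and Csf1r (at most 3.90) for leukocytes. For fibroblasts they were Col1a2 (at most 7.22), Dcn (at most 2.62) and Pdgfra (at most 2.08). Both sums were lowest with the empty vector (5.39 and 6.10 CPM for leukocytes, 5.02 and 5.29 for fibroblasts), and their part in the results was not tested. Melanocyte markers summed to between 40.6 and 65.1 CPM, nearly all of it Mitf and Pmel, with Tyr at 0 in every library. Endothelial markers summed to between 101 and 110.1 CPM with the empty vector and between 138 and 168 CPM in the c-FOS groups, nearly all of it Flt1 and Pecam1, with Kdr and Tie1 at 0 in every library, and their part in the results was not tested. The entry Rn45s, named for the ribosomal RNA precursor, took between 1.62% (UO126 replicate 1) and 4.08% (empty vector replicate 1) of a library. It took 3.55% in UO126 replicate 2, and the groups overlapped. Whether its reads came from the precursor or from mature ribosomal RNA was not tested, so this share is no measure of the precursor.

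**Figure D1:**
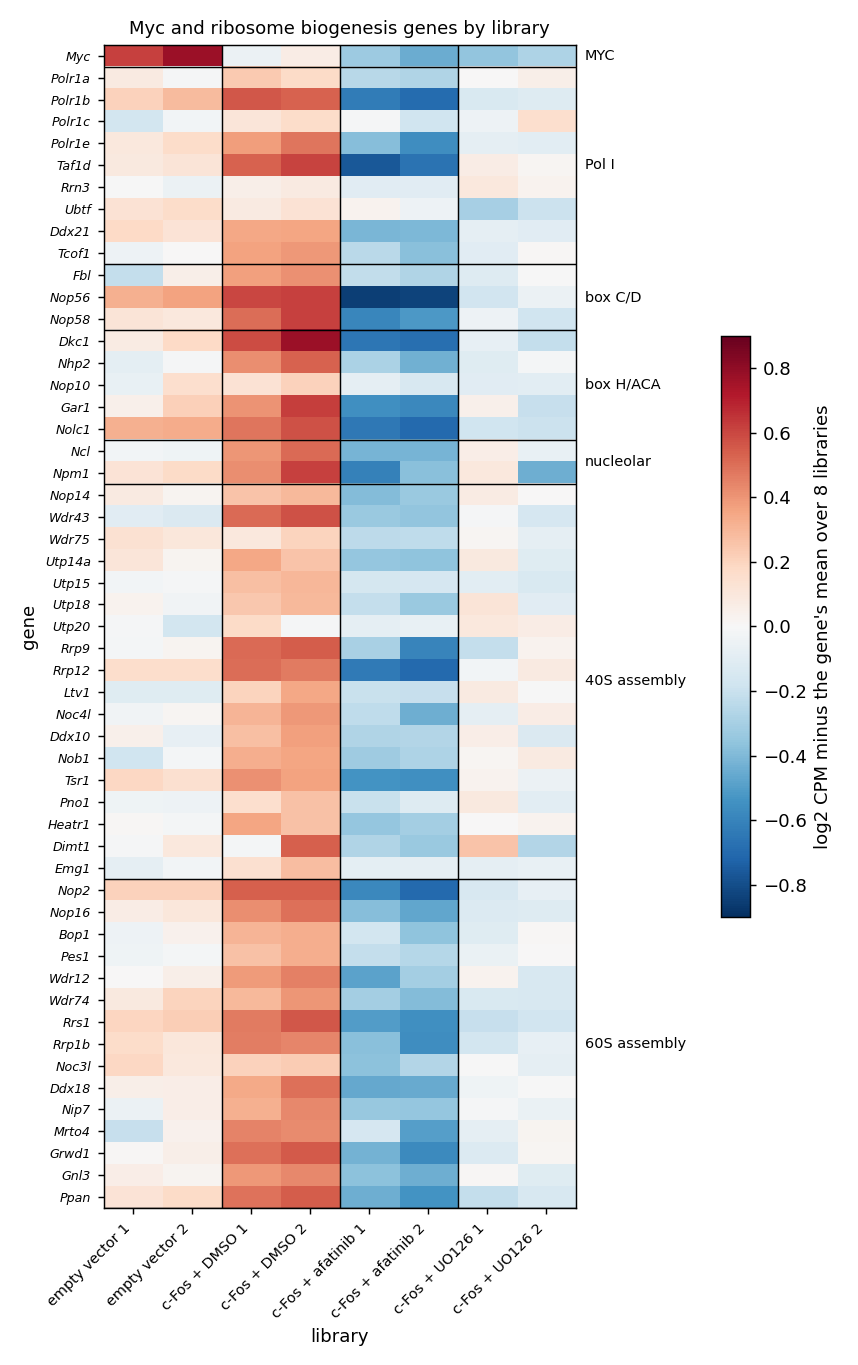
Level of each of the 53 genes (rows, grouped by role) in each of the 8 libraries (columns), as log2 CPM minus the gene's own mean over the 8 libraries; red is above and blue below that mean. In 45 rows both DMSO libraries are the highest, and in 45 rows both afatinib libraries are the lowest; Myc is highest with the empty vector.

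The 53 genes together took 0.709% and 0.724% of all counts in the empty-vector libraries and 0.843% and 0.894% in those of c-FOS with DMSO. Their share was 0.524% and 0.522% with afatinib and 0.673% and 0.643% with UO126, so the 4 groups did not overlap on this sum. In 45 members both DMSO libraries were above the other 6, against 16.5% of all genes tested. In 45 members both afatinib libraries were below the other 6, against 13.4% of all genes tested. Myc was the only member highest in both empty-vector libraries, and Ubtf the only one lowest in both UO126 libraries. The comparisons with the empty vector and with the inhibitors share the DMSO libraries, so their values are given side by side and not as independent findings.

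Promoter sequence was described for 3 motifs, those bound by MYC, AP-1 and the family of ETS factors. No group was a direct manipulation of MYC or an ETS factor, though the mRNA of Myc and of the ETS factor Etv4 changed between groups. The part of these motifs in the changes was not tested. RefSeq windows (build GRCm38.p6, 250 bases before to 50 after the annotated start, 300 in all) were matched for 46 members, and 7 members (Myc, Npm1, Fbl, Bop1, Rrs1, Rrp12 and Tcof1) had none. The E-box CACGTG, its own reverse complement, was in a window of 10 of the 46 (21.7%), and in 11.8% of the 9954 tested genes with a window. The ETS core CCGGAAG, on either strand, was in 18 of the 46 (39.1%) and in 20.2% of those tested genes. The AP-1 motif TGANTCA, searched on both strands, matched in none of the 46 and in 6.44% of those tested genes. Matches of different motifs can overlap only at their ends. Nop2, Utp18, Ltv1, Rrn3, Grwd1 and Tsr1 held both an E-box and an ETS core. A match is a run of letters in this window and no evidence of binding.

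The E-box sites below carry CACGTG in capitals, read 5′ to 3′ along the gene's strand. They belong to the nucleolar methyltransferase gene Nop2, to Wdr43, which had the highest rise with c-FOS, to the assembly genes Grwd1, Tsr1 and Utp18, and to the polymerase I factor gene Rrn3, which barely moved. The list is a selection: Pes1, Ltv1, Pno1 and Utp20, the last called in no comparison, also held an E-box, and Rrn3 held another. The sites shown of Nop2, Utp18 and Rrn3 lie before the start, and those of Wdr43, Grwd1 and Tsr1 in the transcribed bases after it.
Nop2: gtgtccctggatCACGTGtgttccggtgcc
Wdr43: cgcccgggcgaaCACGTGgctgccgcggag
Utp18: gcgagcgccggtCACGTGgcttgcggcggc
Grwd1: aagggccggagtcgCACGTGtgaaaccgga
Tsr1: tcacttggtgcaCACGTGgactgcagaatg
Rrn3: ttacgctctgctCACGTGggccgcgtcccg
The next sites carry the ETS core (CCGGAAG or its reverse complement) in capitals. They belong to Nop2, to the 3 box H/ACA genes Nolc1, Gar1 and Nhp2 and to the 40S assembly gene Heatr1, and all 5 lie before the start. These are a selection: Polr1c and Rrn3, which barely moved, also held an ETS core, and those of Polr1e, Noc3l and Ppan lie after the start.
Nop2: cggtgccgcggCCGGAAGaggcggggcgtt
Nolc1: cgcgtgtgggaCCGGAAGcaacttctagat
Gar1: gcgccgccacaCTTCCGGaaacgtcgcgta
Nhp2: cacttgaaaacCCGGAAGtgatgtcggagg
Heatr1: gtagtgagaagCCGGAAGttcctatgaggc
Their positions are chr6:125131811-125131840 (+), chr17:71616220-71616249 (+), chr11:93885769-93885798 (-), chr7:45830740-45830769 (-), chr11:74898092-74898121 (+) and chr16:13780639-13780668 (+) for the E-box sites in the order shown. The ETS sites are at chr6:125131834-125131863 (+), chr19:46075822-46075851 (+), chr3:129831421-129831450 (-), chr11:51619739-51619768 (+) and chr13:12395348-12395377 (+). The counts themselves were made on build mm9, and no position was carried between builds.

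Myc mRNA fell with c-FOS, where most of the genes it is known for rose, and it fell with each inhibitor as they did. Its level was 161 and 179.5 CPM in the empty-vector libraries, 101 and 110.1 under DMSO, 83.9 and 76.9 under afatinib and 82.2 and 86.6 under UO126. The empty-vector libraries were the highest, the DMSO libraries came next, and the 4 inhibitor libraries lay below both with afatinib and UO126 overlapping. Myc was lower with c-FOS and DMSO than with the empty vector (log2 fold change -0.69 ± 0.08 SE, adjusted p = 9.12e-06, edgeR quasi-likelihood test). It was lower again with afatinib than with DMSO (-0.40 ± 0.08, adjusted p = 0.00108) and with UO126 than with DMSO (-0.33 ± 0.08, adjusted p = 0.0066, but 0.103 without DMSO replicate 2). The inhibitors were not told apart (-0.07 ± 0.08, adjusted p = 0.609). Against the empty vector the difference was -1.08 ± 0.08 with afatinib and -1.01 ± 0.08 with UO126.

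**Figure D2:**
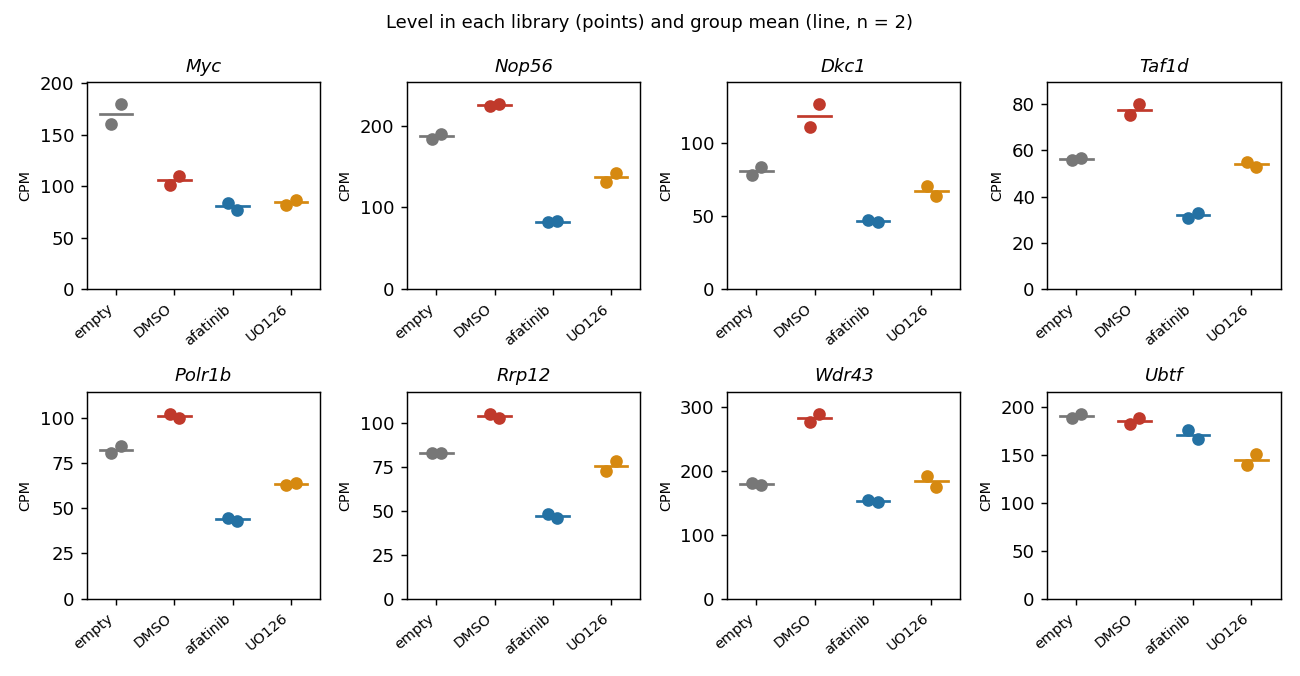
CPM of 8 genes (one panel each, axis from 0) in the 2 libraries (points) of each group, with the group mean as a line. Myc falls from 161 and 179.5 CPM with the empty vector to between 76.9 and 86.6 CPM with an inhibitor; Nop56, Dkc1, Taf1d, Polr1b, Rrp12 and Wdr43 are highest with DMSO and lowest with afatinib, and Ubtf is lowest with UO126.

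With c-FOS and DMSO, 44 of the 53 members were called higher than with the empty vector (adjusted p under 0.05), where 21.5% of all genes tested were called higher. Only Myc was called lower, where 20.7% of all genes were. The median log2 fold change over the members was +0.32, against -0.01 over all genes tested. The rises were small: Wdr43 alone passed 1.5-fold. Vector and labelled vehicle both differ here, and their separate parts were not tested. The 8 members not called were Npm1, Noc3l, Wdr75, Utp20, Dimt1, Nop10, Rrn3 and Ubtf. Of these, Npm1 was called higher in an edgeR fit to the 4 libraries compared (+0.37 log2, adjusted p = 2.04e-05). It was also called with no low-count filter (adjusted p = 8.24e-07, edgeR). Utp20 was called higher in the fit to the 4 libraries (+0.17 log2, adjusted p = 0.0409). Of the 45 called members, 30 kept their call under all 18 alternative analyses. Calls that ended under at least 1 were those of Ddx10, Ddx21, Emg1, Fbl, Gar1, Nolc1, Nop14, Pno1, Polr1a, Polr1c, Polr1e, Tsr1, Utp14a, Utp18 and Wdr74. The median was +0.29 log2 without DMSO replicate 2.

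With afatinib, 50 members were called lower than with DMSO, where 21.5% of all genes tested were called lower. The test called 0 members higher, where 21.2% of all genes were. No member was higher at an unadjusted p under 0.05 either (0 members), and DESeq2 called 0 higher as well. The median was -0.72 log2, against 0.00 over all genes, and 13 members fell more than 2-fold. The 3 not called were Polr1c, Ubtf and Utp20. All but 4 of the calls (Dimt1, Emg1, Nop10 and Rrn3) held under all 18 alternatives.

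With UO126, 47 members were called lower than with DMSO, where 14.7% of all genes tested were. Again 0 were called higher, where 13.9% of all genes were, with 0 at an unadjusted p under 0.05 and 0 by DESeq2. The median was -0.44 log2, against 0.00 over all genes, and 12 members fell more than 1.5-fold. The members not called were Polr1c, Rrn3, Utp20, Wdr75, Pno1 and Dimt1. Here 32 of the 47 calls held under all alternatives. Those of Ddx10, Emg1, Fbl, Ltv1, Mrto4, Myc, Nob1, Noc3l, Noc4l, Nop10, Nop14, Npm1, Polr1a, Utp14a and Utp18 did not. The median was -0.39 log2 without DMSO replicate 2.

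Afatinib and UO126 were then compared directly. Of the 53 members, 36 were lower with afatinib than with UO126 and 1, Ubtf, was higher, where 7.14% of all genes tested were called in each direction. The median was -0.32 log2, against 0.00 over all genes. This count rests on few libraries. In the fit to the 4 libraries compared 25 members were lower, where the count over all genes went from 920 to 505. The median was -0.27 log2 without afatinib replicate 2, and 15 of the 37 calls held under every alternative. These were Ncl, Nop56, Nop58, Dkc1, Nolc1, Taf1d, Polr1b, Ddx21, Rrp12, Tsr1, Heatr1, Nop14, Nop2, Ddx18 and Grwd1. The 2 inhibitors were given at 1 concentration each, 5 µM and 10 µM, so the difference is between these treatments.

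**Figure D3:**
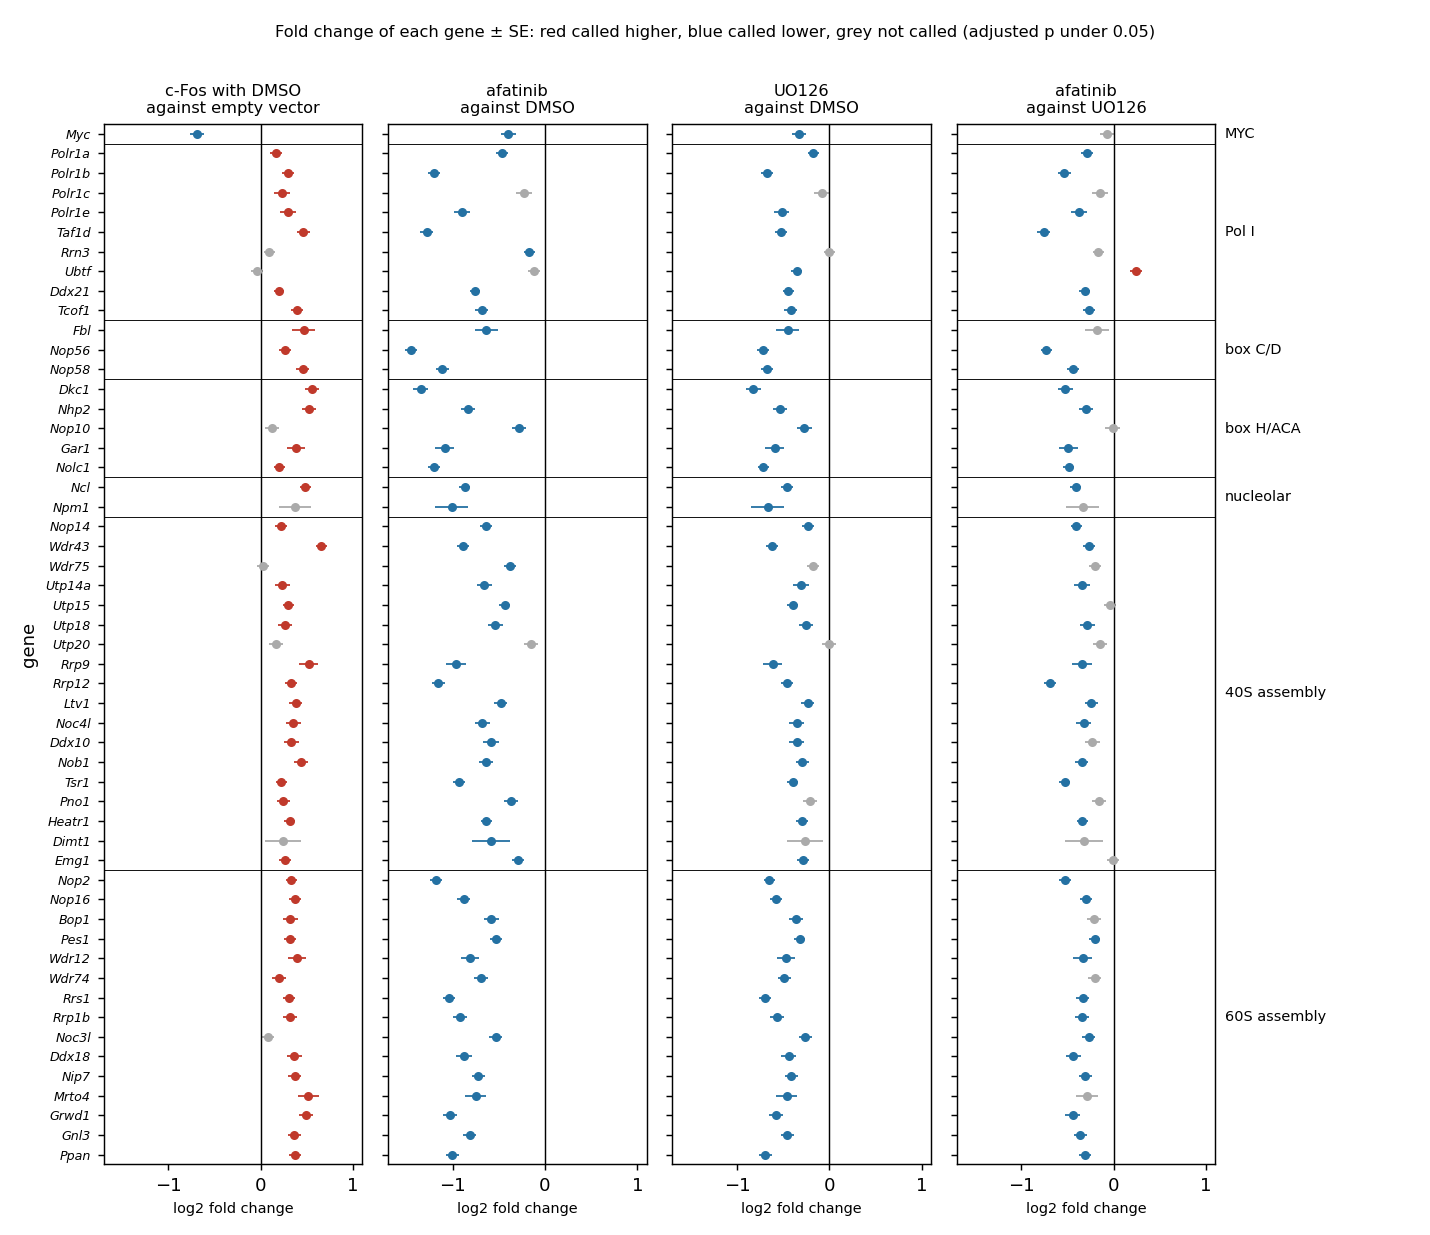
Log2 fold change (x axis) of each of the 53 genes (rows, grouped by role) in 4 comparisons, with SE bars; red was called higher, blue lower and grey neither at an adjusted p under 0.05. Red fills the panel for c-FOS apart from Myc and 8 grey genes, blue fills both inhibitor panels apart from 3 grey genes with afatinib and 6 with UO126, and Ubtf is the single red point for afatinib against UO126.

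Set against the empty vector, the inhibitor groups differed in how many members stood below it. With afatinib 41 members were lower, where 23.4% of all genes tested were, and the median was -0.42 log2, against -0.03 over all genes. With UO126 15 members (28.3%) were lower, where 19.4% of all genes were, and the median was -0.08 log2, against -0.02 over all genes. No member was called higher in either: the counts were 0 with afatinib (21.7% of all genes, 0 at an unadjusted p under 0.05, 0 by DESeq2) and 0 with UO126 (18.3% of all genes, 1 at an unadjusted p under 0.05, 0 by DESeq2). With UO126 the median was -0.07 log2 without empty vector replicate 1 and -0.06 log2 without replicate 2. The 15 members below the empty vector with UO126 included Myc, Nop56, Nolc1, Rrs1, Polr1b and Ubtf. Of these calls 28 of 41 and 8 of 15 held under all 18 alternatives. These groups also differ from the empty vector in c-FOS and in what the cells received for the last 6 h.

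Among 9 genes of RNA polymerase I transcription, 7 rose with c-FOS, 7 fell with afatinib and 7 fell with UO126. The shares of all genes tested, here and for the roles that follow, were 21.5%, 21.5% and 14.7%. Taf1d, a subunit of the promoter selectivity factor SL1, had the largest rise of this group with c-FOS and its largest fall with afatinib. Its level was 55.7 and 56.8 CPM for the empty vector, 75.4 and 79.8 for DMSO, 30.8 and 32.96 for afatinib and 54.9 and 52.95 for UO126. The 4 groups did not overlap, and the UO126 libraries lay just below those with the empty vector. The changes were +0.46 ± 0.07 with c-FOS (adjusted p = 0.000122), -1.28 ± 0.07 with afatinib (adjusted p = 2.11e-08) and -0.53 ± 0.07 with UO126 (adjusted p = 0.000101). Between the inhibitors the difference was -0.76 ± 0.07 (adjusted p = 2.23e-05), the largest of any member. Short antisense overlap with another gene covers 5.6% of its exons, and the kit does not mark strand.

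Polr1b, the second-largest subunit of polymerase I, was at 102 and 100.3 CPM under DMSO, 80.5 and 84.7 with the empty vector, 63.1 and 64.2 under UO126 and 44.9 and 42.99 under afatinib. It was highest with DMSO and lowest with afatinib, with no overlap between groups. It fell by 1.21 ± 0.07 log2 with afatinib (adjusted p = 2.07e-08) and by 0.67 ± 0.06 with UO126 (adjusted p = 8.07e-06), and was below the empty vector in both (-0.91 ± 0.07 and -0.37 ± 0.06). The catalytic subunit Polr1a moved less: +0.17 ± 0.06 with c-FOS, -0.46 ± 0.06 with afatinib and -0.17 ± 0.06 with UO126, the first and the last of these lost under most alternatives. Polr1e, an associated factor of the enzyme, fell by 0.90 ± 0.09 with afatinib.

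Ubtf, the upstream binding factor that opens the ribosomal DNA, followed another course from these subunits. Its level was 188 and 193 CPM in the empty-vector libraries, 182 and 188 under DMSO, 176 and 166 under afatinib and 139.6 and 150.3 under UO126. The UO126 libraries were the lowest, the afatinib libraries next, and those with the empty vector and DMSO overlapped. Ubtf did not change with c-FOS at the threshold (-0.04 ± 0.06, adjusted p = 0.66) or with afatinib (-0.12 ± 0.06, adjusted p = 0.162). It fell with UO126 (-0.35 ± 0.06, adjusted p = 0.00109). The difference of afatinib from UO126 was +0.24 ± 0.06 (adjusted p = 0.0234), a call that ended in a fit to the 4 libraries compared (0.0931) and without afatinib replicate 1 (0.151), afatinib replicate 2 (0.0599) or UO126 replicate 1 (0.0659), and at an adjusted p under 0.01.

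Rrn3, the initiation factor TIF-IA whose promoter site stands above, ran from 147 to 168 CPM over all 8 libraries. Its 1 call, a fall of 0.17 ± 0.06 log2 with afatinib (adjusted p = 0.0365), ended under 11 of the 18 alternatives. Polr1c, a subunit shared with polymerase III, had 1 call as well, a rise of +0.23 ± 0.09 with c-FOS (adjusted p = 0.0491), lost under 12 alternatives.

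In the box C/D snoRNP, which guides 2′-O-methylation, the mRNAs of all 3 proteins listed rose with c-FOS and fell with both inhibitors. Nop56, a core scaffold protein, had the largest fall of all 53 members. Its level was 184 and 190.1 CPM for the empty vector, 225 and 226 for DMSO, 81.99 and 83.1 for afatinib and 131 and 142 for UO126. No groups overlapped, and the DMSO libraries were the highest. Nop56 rose by 0.27 ± 0.06 log2 with c-FOS (adjusted p = 0.00366), fell by 1.45 ± 0.06 with afatinib (adjusted p = 3.42e-09) and by 0.72 ± 0.06 with UO126 (adjusted p = 3.01e-06). It was lower with afatinib than with UO126 by 0.73 ± 0.06 (adjusted p = 1.14e-05), and below the empty vector by 1.18 ± 0.06 with afatinib and 0.45 ± 0.06 with UO126. Its partner Nop58 changed by +0.45 ± 0.07, -1.11 ± 0.07 and -0.67 ± 0.07 in the same order. Fbl, the methyltransferase fibrillarin, was counted at 10.8 and 11.1 CPM under DMSO, 7.19 and 8.64 with the empty vector, 7.68 and 8.30 under UO126 and 7.16 and 6.92 under afatinib. Few reads carried these values, copies of the gene elsewhere in the genome could have shared them, and the rise with c-FOS (+0.47 ± 0.12, adjusted p = 0.00775) ended without DMSO replicate 2 (0.052) or empty vector replicate 1 (0.0901). Its fall with UO126 ended under 5 alternatives, DESeq2 (0.0819) among them.

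The box H/ACA snoRNP converts uridine to pseudouridine, and Dkc1 is its catalytic subunit, dyskerin. Its level was 77.8 and 83.5 CPM in the empty-vector libraries, 111 and 126 under DMSO, 47.03 and 46.2 under afatinib and 70.3 and 63.7 under UO126. The DMSO libraries were the highest, and those with UO126 lay between the empty vector and afatinib. Dkc1 rose by 0.56 ± 0.08 log2 with c-FOS (adjusted p = 7.86e-05) and fell by 1.35 ± 0.08 with afatinib (adjusted p = 4.17e-08) and 0.82 ± 0.08 with UO126 (adjusted p = 7.56e-06), the largest fall with UO126 of any member. The core proteins Gar1 (-1.08 ± 0.10) and Nhp2 (-0.83 ± 0.07) also fell with afatinib. Nop10, the smallest core protein, fell by 0.28 ± 0.08 with afatinib and 0.27 ± 0.08 with UO126, calls that ended under 3 and 4 alternatives, with omission of DMSO replicate 2 (0.125 and 0.174) among both.

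Nolc1, the nucleolar chaperone of these particles known as Nopp140, was at 309 and 314 CPM for the empty vector, 347 and 369.8 for DMSO, 159 and 153 for afatinib and 219 and 218 for UO126. Its rise with c-FOS was small (+0.20 ± 0.06, adjusted p = 0.0141, and 0.143 without DMSO replicate 2). Its fall was among the largest with afatinib (-1.20 ± 0.06, adjusted p = 9.48e-09) and with UO126 (-0.71 ± 0.06, adjusted p = 2.05e-06). Both inhibitor groups lay below the empty vector without overlap, by 1.00 ± 0.06 and 0.51 ± 0.06 log2.

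Nucleolin and nucleophosmin are the abundant phosphoproteins of the nucleolus. Nucleolin, encoded by Ncl, was at 1917 and 2072 CPM under DMSO, 1432 and 1417 with the empty vector, 1515 and 1391 under UO126 and 1092 and 1089.8 under afatinib. The DMSO libraries were the highest and the afatinib libraries the lowest, while UO126 and the empty vector overlapped. Ncl rose by 0.49 ± 0.06 log2 with c-FOS (adjusted p = 3.35e-05), fell by 0.87 ± 0.06 with afatinib (adjusted p = 1.97e-07) and by 0.46 ± 0.06 with UO126 (adjusted p = 0.000135). UO126 did not differ from the empty vector at the threshold (+0.03 ± 0.06, adjusted p = 0.752). Nucleophosmin, encoded by Npm1, was at 342 and 354 CPM in the empty-vector libraries, 419 and 482 under DMSO, 206 and 242 under afatinib and 335 and 231 under UO126. The UO126 libraries lay far apart, one near the empty vector and one among the afatinib libraries. Npm1 has processed copies in the genome, so its counts are uncertain. Npm1 fell with afatinib (-1.01 ± 0.18, adjusted p = 0.0045), and its fall with UO126 (-0.67 ± 0.18, adjusted p = 0.033) ended under 8 alternatives.

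Of the 18 genes of 40S assembly, 15 rose with c-FOS, 17 fell with afatinib and 14 fell with UO126. The shares of all genes tested were 21.5%, 21.5% and 14.7%. Wdr43, a part of the early complex on the nascent precursor, had the largest rise of any member. Its level was 181 and 177 CPM for the empty vector, 276 and 289 for DMSO, 154 and 152 for afatinib and 192 and 175 for UO126. The DMSO libraries were far above all others, and UO126 overlapped the empty vector. The changes were +0.66 ± 0.06 with c-FOS (adjusted p = 2.49e-06), -0.89 ± 0.06 with afatinib (adjusted p = 2.22e-07) and -0.62 ± 0.06 with UO126 (adjusted p = 1.31e-05). Rrp12, needed for export and maturation of the subunits, had the largest fall with afatinib in this group. Its level was 105 and 103 CPM under DMSO, 83.02 and 82.8 with the empty vector, 72.96 and 78.5 under UO126 and 47.96 and 45.7 under afatinib. The groups did not overlap. Rrp12 fell by 1.15 ± 0.07 log2 with afatinib (adjusted p = 3.29e-08) and 0.46 ± 0.07 with UO126 (adjusted p = 0.000208), a difference between them of -0.69 ± 0.07 (adjusted p = 2.83e-05).

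Tsr1, a late 40S assembly factor, was at 164 and 159 CPM in the empty-vector libraries, 192 and 186 under DMSO, 99.7 and 98.7 under afatinib and 147 and 139 under UO126. It was lowest with afatinib, without overlap, and fell by 0.93 ± 0.06 log2 there (adjusted p = 1.03e-07). It was the 1 gene of this group called below the empty vector with UO126 (-0.17 ± 0.06, adjusted p = 0.0377, a call that ended under 13 alternatives). Exons of Srr on the other strand cover 34.2% of the exons of Tsr1, so reads from that stretch cannot be told apart. Kif2a likewise covers 37.3% of Dimt1, a methyltransferase gene at 6.28 to 11.5 CPM whose fall with afatinib (-0.58 ± 0.20) ended under 8 alternatives. The scaffold Heatr1 (-0.64 ± 0.06 with afatinib, -0.30 ± 0.06 with UO126) held its calls under all alternatives.

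Changes were small in the 40S genes Utp20, Wdr75, Emg1 and Pno1. Utp20, a large scaffold of the early particle with an E-box in its window, was called in none of the 6 comparisons and lay between 163 and 206 CPM. Wdr75, a factor that joins early assembly to polymerase I transcription, fell with afatinib (-0.38 ± 0.07, adjusted p = 0.000506) and was not called with c-FOS (+0.03 ± 0.07) or UO126 (-0.18 ± 0.07). Emg1, the methyltransferase that acts on the small-subunit RNA, fell by 0.29 ± 0.07 with each inhibitor, calls that ended without DMSO replicate 2 (0.0826 and 0.11). Pno1, a partner of the nuclease gene Nob1, rose by 0.25 ± 0.07 with c-FOS and fell by 0.36 ± 0.07 with afatinib, and the rise ended under 4 alternatives: without DMSO replicate 2 (0.136), empty vector replicate 1 (0.0529) or empty vector replicate 2 (0.0736), and at an adjusted p under 0.01.

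All 15 measured genes of 60S assembly fell with afatinib and with UO126, and 14 rose with c-FOS. Of all genes tested 21.5% fell with afatinib, 14.7% fell with UO126 and 21.5% rose with c-FOS. Nop2, which methylates the large-subunit RNA, had the largest fall of the group with afatinib. Its level was 174 and 174 CPM for the empty vector, 219 and 219 for DMSO, 101 and 92.7 for afatinib and 136 and 143 for UO126. The groups did not overlap, and the DMSO libraries were alike. Nop2 rose by 0.33 ± 0.06 log2 with c-FOS (adjusted p = 0.000832), fell by 1.18 ± 0.06 with afatinib (adjusted p = 1.86e-08) and by 0.65 ± 0.06 with UO126 (adjusted p = 8.64e-06), and was lower with afatinib than with UO126 by 0.53 ± 0.06 (adjusted p = 0.00017). Rrs1, which brings the 5S particle into the pre-60S subunit, was at 93.3 and 99.3 CPM under DMSO, 77.1 and 78.6 with the empty vector, 58.5 and 60.1 under UO126 and 47.7 and 46.2 under afatinib. It had the largest fall of the group with UO126 (-0.70 ± 0.07, adjusted p = 6.19e-06) and fell by 1.04 ± 0.07 with afatinib. Both inhibitor groups were below the empty vector without overlap.

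Mrto4, which holds the place of the stalk protein on the pre-60S subunit, had the largest rise with c-FOS in this group. Its level was 23.03 and 27.4 CPM in the empty-vector libraries, 36.2 and 35.7 under DMSO, 23.96 and 18.8 under afatinib and 25.1 and 27.1 under UO126. The empty-vector, afatinib and UO126 libraries overlapped, and the DMSO libraries were above them. The rise was +0.52 ± 0.11 (adjusted p = 0.00274). Pes1, Bop1 and Wdr12 form 1 complex of 60S assembly. They rose alike with c-FOS (+0.32 ± 0.06, +0.32 ± 0.08 and +0.39 ± 0.10), and fell with afatinib (-0.53 ± 0.06, -0.58 ± 0.08 and -0.81 ± 0.10) and with UO126 (-0.32 ± 0.06, -0.36 ± 0.08 and -0.47 ± 0.10). Noc3l was the single gene of this role not called with c-FOS (+0.08 ± 0.07, adjusted p = 0.417), yet it fell with afatinib (-0.53 ± 0.07, adjusted p = 5.25e-05).

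Other genes of ribosome production, listed apart from the 53, were counted in the same fit. Of 31 further 40S assembly genes 22 rose with c-FOS, 28 fell with afatinib and 20 fell with UO126, where the shares of all genes, here and for the lists that follow, were 21.5%, 21.5% and 14.7%. Wdr36 had the largest rise (+0.65 ± 0.06) and Nol10 the largest fall (-0.91 ± 0.07 with afatinib). Of 40 further 60S assembly genes 28 rose with c-FOS, 35 fell with afatinib and 32 fell with UO126, with Rrp15 leading in both directions (+0.58 ± 0.08 and, with afatinib, -1.07 ± 0.08). All 11 genes of the RNA exosome, which trims precursor ends, fell with afatinib and 9 fell with UO126, as Exosc6 did (-0.82 ± 0.08 and -0.47 ± 0.08). Without DMSO replicate 2 fewer genes of each of these 3 lists were called lower with UO126, and fewer of the 40S list rose with c-FOS. The counts over all genes were smaller in that fit as well.

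Of 7 further polymerase I genes 5 fell with afatinib and 4 with UO126 (3 with afatinib by DESeq2, without DMSO replicate 2 and without either afatinib replicate, and 2 with UO126 without DMSO replicate 2). Cd3eap, another subunit of the enzyme, rose by 0.52 ± 0.07 log2 with c-FOS and fell by 1.07 ± 0.07 with afatinib and 0.72 ± 0.07 with UO126. Of 8 snoRNP assembly factors 6 fell with each inhibitor (3 with UO126 without DMSO replicate 2), Znhit6 furthest with afatinib (-1.08 ± 0.11) and Naf1 furthest with UO126 (-0.55 ± 0.09). All 7 snoRNA host transcripts fell with afatinib and 5 with UO126. Snhg12 changed by -1.53 ± 0.11 and Snhg5 by -1.46 ± 0.07 log2 with afatinib, against -0.33 ± 0.10 and -0.50 ± 0.07 with UO126, and both were lower with afatinib than with UO126 (-1.20 ± 0.11, adjusted p = 1.54e-05, and -0.95 ± 0.07, adjusted p = 3.4e-06). The call of Snhg12 with UO126 ended by DESeq2 and without DMSO replicate 1, DMSO replicate 2 or UO126 replicate 2, and at an adjusted p under 0.01.

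RNA polymerase III, which makes 5S ribosomal RNA and transfer RNA, is represented by 20 genes tested. Of these 3 rose and 2 fell with c-FOS, where 21.5% of all genes rose and 20.7% fell. With afatinib 7 fell and 1 rose, where 21.5% of all genes fell and 21.2% rose, and with UO126 2 fell, where 14.7% of all genes did. Without DMSO replicate 2 the counts were 0 that rose with c-FOS, 2 that fell with afatinib and 0 that fell with UO126. The gene that rose with afatinib was Maf1, the repressor of that enzyme (+0.42 ± 0.08, adjusted p = 0.00124), and Maf1 fell with c-FOS (-0.43 ± 0.08, adjusted p = 0.00121).

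Ribosomal protein genes were counted at widely different levels. Of 77 genes 21 stayed under 10 CPM in every group, and the highest group mean of a gene ran from 1.11 to 833 CPM. These genes have many processed copies, so how the authors assigned shared reads bears on their counts, which are uncertain. Of 46 genes of the large subunit 23 rose with c-FOS, 29 fell with afatinib and 23 fell with UO126, where the shares of all genes were 21.5%, 21.5% and 14.7%. Of 31 of the small subunit 18 rose and 1 fell with c-FOS, 19 fell with afatinib and 15 fell with UO126. Without DMSO replicate 2 those that fell with UO126 numbered 3 and 1, where the count over all genes went from 1893 to 968. In the same fit those that rose with c-FOS numbered 12 and 10, and the small-subunit genes that fell with afatinib 8. The large-subunit genes that fell with afatinib were 15 without afatinib replicate 2. Rps4x had the clearest rise with c-FOS (+0.79 ± 0.08, adjusted p = 2.85e-06) and Rpl3 the largest fall with afatinib (-1.41 ± 0.13, adjusted p = 1.65e-06).

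Of 10 partners and antagonists of MYC tested, 6 fell with c-FOS, where 20.7% of all genes fell. With afatinib 5 rose and 1 fell, where 21.2% of all genes rose and 21.5% fell. With UO126 3 rose and 1 fell (1 rose without DMSO replicate 2), where 13.9% of all genes rose and 14.7% fell. Mxd4 and Mxd1 encode MAX partners that repress E-box genes. Mxd4 fell by 0.92 ± 0.11 log2 with c-FOS (adjusted p = 1.32e-05) and rose by 0.86 ± 0.11 with afatinib (adjusted p = 2.78e-05) and 0.40 ± 0.11 with UO126 (adjusted p = 0.0152, lost without DMSO replicate 2, without UO126 replicate 2 and at an adjusted p under 0.01). Mxd1 changed by -0.54 ± 0.12, +0.72 ± 0.12 and +0.47 ± 0.12 in the same order, the last lost without DMSO replicate 2 (0.124). Mnt, another repressor of this family, changed by -0.40 ± 0.09, +0.26 ± 0.09 and +0.41 ± 0.09, where the call with c-FOS ended without empty vector replicate 1 (0.0525) and that with afatinib under 5 alternatives, DESeq2 (0.0644) among them. Max itself was the gene that fell with both inhibitors (-0.53 ± 0.07, adjusted p = 5.4e-05, and -0.39 ± 0.07, adjusted p = 0.00115). Mycl, a paralog of Myc, fell with c-FOS (-0.58 ± 0.11) and rose with afatinib (+0.68 ± 0.11).

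Of 20 MYC target genes outside ribosome production 11 rose and 1 fell with c-FOS, 19 fell and 1 rose with afatinib, and 16 fell with UO126 (10 without DMSO replicate 2). The polyamine enzyme genes led the rise: Odc1 changed by +1.04 ± 0.08 (adjusted p = 1.62e-07) and Srm by +0.71 ± 0.08 (adjusted p = 8.59e-06). Srm also had the largest fall with afatinib (-1.08 ± 0.08, adjusted p = 2.38e-07). The transferrin receptor gene Tfrc fell by 0.90 ± 0.10 with afatinib and 0.80 ± 0.10 with UO126.

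**Figure D4:**
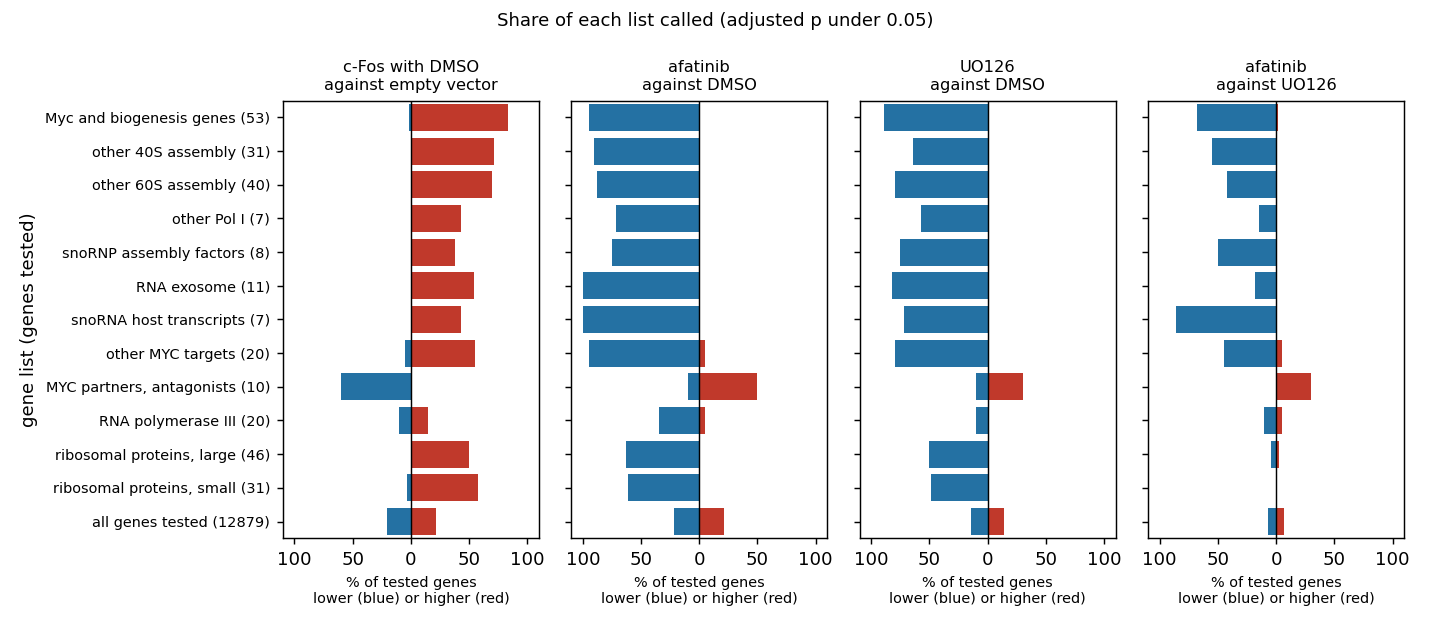
Share of the tested genes of each list called lower (blue, to the left) or higher (red, to the right) at an adjusted p under 0.05 in 4 comparisons, with the number of genes tested in parentheses and all genes tested in the bottom row. The members and the lists of other assembly genes have more red than blue for c-FOS and more blue than red for each inhibitor, while of the 10 MYC partners and antagonists 6 are blue for c-FOS and 5 are red for afatinib.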

How the data were processed

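Messenger RNA of 8 libraries, 2 in each of 4 groups taken from the labels, was analysed. Per the labels' protocols, RNeasy extraction was followed by the unstranded TruSeq RNA library kit. TopHat and HOMER made the counts per the design text, and the submitters' processing notes also list build mm9 and DESeq2. Versions are not given in the sources used here. The authors deposited expected counts, multiples of 0.5 with no normalization, for 24909 symbols, and the table has 1 transcript length in bases per symbol as another column, not used in a test. Left out were 26 symbols damaged by conversion to dates.

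Expected counts were rounded to whole numbers and tested in R 4.3.3 with edgeR 4.0.16 (filterByExpr at min.count 10 and min.total.count 15, scaling by the trimmed mean of M-values, robust quasi-likelihood test, 1 coefficient per group, all 8 libraries, 4 residual degrees of freedom). In each of 6 comparisons the two-sided p of the 12879 genes had Benjamini-Hochberg adjustment, and a gene was called under 0.05. Log2 fold changes are from that fit, each with an SE from the F statistic, and CPM uses the scaled library sizes. The chi-square per degree of freedom between the libraries of a group was 4.95 (empty vector), 8.69 (DMSO), 9.37 (afatinib) and 25.9 (UO126), so no pair was 1 library counted again. The UO126 libraries differed most by this measure. The fit shared the spread of a gene over all groups, so SEs with UO126 may understate the spread of that group.

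The members and the other lists were chosen with earlier results of these data known. Genes are named by a rule: Myc, the called member of each role with the largest rise and fall in each comparison, members called against the majority or in no comparison, and up to 3 genes of each other list per comparison with DMSO. Other members stand beside counts. Promoter windows come from RefSeq tables of build GRCm38.p6, and antisense overlap from the GENCODE annotation of GRCm38. The 18 alternatives were DESeq2 1.42.0 as a test, its size factors, total-count scaling, both filter changes (none, or 5 CPM in 2 libraries), a fit to the 4 libraries compared, a replicate block, no robust estimation, adjusted p under 0.01, omission of Rn45s and of each library in turn.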

Additional observations from a re-analysis of the deposited data

How the results depend on the processing

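Under the 18 alternatives the 53 members gave 5724 fold changes with a verdict. Of these 5353 kept their side of the threshold, 333 lost a call, 38 gained one and 0 called values changed sign. Members higher with c-FOS ranged from 31 to 46 when 1 library at a time was left out, members lower with afatinib from 46 to 51 and members lower with UO126 from 33 to 48. For afatinib against UO126 the number lower ranged from 15 to 38 in that way and was 22 at an adjusted p under 0.01. The number higher, 1 (Ubtf), was 0 in the fit to the 4 libraries compared, 0 at an adjusted p under 0.01, and 0 to 1 with a library left out. For UO126 against the empty vector 9 to 15 were lower and 0 to 1 higher with a library left out. In a group cut to 1 library, that library is assumed to vary like the other groups. The count over all genes also changed in these fits, so the ranges do not single out the members.

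No label says that replicate numbers mark a shared culture, and the deviations of same-numbered libraries correlated between -0.36 and 0.18. With replicate number as a block, 41 members were higher with c-FOS, 48 lower with afatinib, 45 lower with UO126, and 32 lower and 1 higher with afatinib against UO126. Against the empty vector the block gave 40 lower with afatinib and 14 with UO126. The block counts over all genes, in the order given, were 2554, 2537, 1652, 711, 706, 2766 and 2253. Counts in the other lists moved by more than 1.5 times in 266 of 2592 list counts, and 454 calls of their named genes were lost and 62 gained. Depth limits Fbl and Dimt1 most. Total-count scaling moved the median of all genes by at most 0.05 log2.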

Other observations

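Genes that ERK is known to induce were measured in the same fit as a readout of the inhibitors. Of 10 such genes 8 rose with c-FOS and DMSO against the empty vector, 10 fell with afatinib and 9 fell with UO126. The shares of all genes tested were 21.5%, 21.5% and 14.7%. Dusp6, a phosphatase of ERK, changed by +0.28 ± 0.08 log2 with c-FOS, -2.73 ± 0.10 with afatinib and -1.98 ± 0.09 with UO126, and was lower with afatinib than with UO126 (-0.75 ± 0.10, adjusted p = 0.000464, edgeR). Its rise with c-FOS ended without DMSO replicate 2, without empty vector replicate 1 and at an adjusted p under 0.01. Etv4, an ETS factor, changed by +2.40 ± 0.10, -1.54 ± 0.09 and -1.65 ± 0.09 in the same order and did not differ between the inhibitors at the threshold (+0.12 ± 0.10, adjusted p = 0.487).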
